A study of Mus musculus with 24 samples.

Results

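The guanylate-binding proteins were followed in RNA sequencing data from mouse bone marrow-derived macrophages (BMDMs), taking every row of the expression table whose symbol was Gbp2, Gbp3, Gbp4, Gbp5, Gbp6, Gbp7, Gbp8 or Gbp9. These 8 symbols matched 9 of the 24273 rows, because Gbp6 was the symbol of 2 rows. All 9 rows passed the filter on low values, as did 13901 rows in the whole table. BMDMs on the C57BL/6 background came from mice labeled LysM-Cre, the control, or FosKO, which are LysM-Cre mice with both Fos alleles floxed. Every group thus carried Cre from the lysozyme locus Lyz2, which is active in myeloid cells. The series text gives the control as LysM-Cre alone, whereas the study elsewhere gives it 1 floxed Fos allele as well. Cells of both labels were left unstimulated (0 h) or stimulated with 100 ng/ml LPS, a ligand of TLR4, for 0.5, 1 or 2 h. There were 3 libraries in each of the 8 groups, 24 in all. The methods call the libraries biological replicates, but neither they nor the labels say that the 3 came from separate mice, so p-values measure the spread between these libraries.

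Guanylate-binding proteins are large GTPases made by cells exposed to interferon. They coat vacuoles that hold parasites or bacteria and the surface of bacteria that have reached the cytosol, and they bring cytosolic LPS to caspase-11, the product of Casp4. Their genes are best known as targets of interferon-γ, which acts through the GAS element. They also answer type I interferon, which acts through the ISRE element. In macrophages, LPS induces IFN-β, which then acts back on the same cells.

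The genes lay in 2 clusters of the mm10 (GRCm38) build. Gbp5 (chromosome 3 from 142493978 to 142522344), Gbp7 (142530342 to 142550149), Gbp3 (142560026 to 142573209) and Gbp2 (142620602 to 142638008) stood on the plus strand of chromosome 3. Gbp8 (chromosome 5 from 105014150 to 105139540), Gbp9 (105077630 to 105139539), Gbp4 (105115767 to 105139586) and Gbp6 (ENSMUSG00000104713, 105270702 to 105293698) stood on the minus strand of chromosome 5. All were annotated as protein coding.

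How well reads can be told apart differed between the genes. Of the 50-base windows in its annotated transcripts, Gbp5 shared 1.44% with another gene, Gbp2 2.03%, Gbp3 3.75%, Gbp4 7.7%, Gbp9 8.05%, Gbp7 12.7%, Gbp8 18.1% and Gbp6 70.7%. Gbp6 shared 29% of its exon bases with Gm43302, and its values are therefore uncertain. The row that also carried the symbol Gbp6 (ENSMUSG00000079362) is that locus, which GENCODE names Gm43302, and 100% of its windows occurred in other genes. It lay between 0.817 and 2.47 on the log2 scale, with 4 of the 24 libraries above 1, and was called in none of the 13 comparisons. It is left out of the counts below, which are over the other 8 rows. Gbp4, Gbp8 and Gbp9 overlapped each other, by at most 1.77% of exon bases.

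The promoters are shown because the genes differed between the genotypes in the same direction. The RefSeq promoter table matched 4 of the 8 symbols, Gbp2, Gbp3, Gbp5 and Gbp7, with 5 windows of 300 bases (250 before to 50 after the start, GRCm38.p6). Motifs were searched on both strands as ISRE (GAAA, any 2 bases, GAAA), GAS (TTCNNNGAA), AP-1 (TGANTCA), the element bound by FOS and JUN dimers, and kappaB by its usual degenerate form. The stretch before the start is printed 5′ to 3′, with motif matches in capitals. For Gbp2 and Gbp5 it ends before the RefSeq start, because it was cut 30 bases into an exon that GENCODE starts farther upstream.
Gbp2, chr3:142620413-142620631, plus strand: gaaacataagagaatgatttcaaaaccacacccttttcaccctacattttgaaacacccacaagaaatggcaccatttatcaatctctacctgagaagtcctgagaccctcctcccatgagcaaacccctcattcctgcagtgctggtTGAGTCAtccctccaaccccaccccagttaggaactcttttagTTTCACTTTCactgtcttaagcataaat
Gbp3, chr3:142559794-142560043, plus strand: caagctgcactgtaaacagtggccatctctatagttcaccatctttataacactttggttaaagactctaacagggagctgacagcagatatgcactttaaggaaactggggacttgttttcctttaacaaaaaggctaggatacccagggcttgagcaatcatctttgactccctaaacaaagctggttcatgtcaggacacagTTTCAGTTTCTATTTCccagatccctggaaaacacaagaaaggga
Gbp5, chr3:142496684-142496929, plus strand: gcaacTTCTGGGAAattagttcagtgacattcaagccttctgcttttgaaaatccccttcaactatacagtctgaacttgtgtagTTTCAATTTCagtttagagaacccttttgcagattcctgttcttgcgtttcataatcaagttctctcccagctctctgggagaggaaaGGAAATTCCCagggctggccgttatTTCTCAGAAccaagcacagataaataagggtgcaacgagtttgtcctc
Gbp7, chr3:142530086-142530335, plus strand: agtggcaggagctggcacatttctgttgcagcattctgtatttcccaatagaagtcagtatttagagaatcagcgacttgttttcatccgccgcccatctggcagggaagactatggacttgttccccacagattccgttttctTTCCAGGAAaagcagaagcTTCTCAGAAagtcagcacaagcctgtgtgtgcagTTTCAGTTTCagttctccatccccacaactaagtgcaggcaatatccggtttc

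An ISRE match lay in 4 of the 5 windows, 1 window for each gene, against 3.44% of 32851 promoter windows of the same length. The other window of Gbp3, at a later start, held none and is not printed. In Gbp2 it was TTTCACTTTC, from -59 to -50 relative to the RefSeq start. Gbp7 held TTTCAGTTTC from -53 to -44. In Gbp3 that same sequence from -45 to -36 overlapped a further match, TTTCTATTTC, from -39 to -30. Gbp5 held TTTCAATTTC farther away, from -165 to -156. GAS matches were found in Gbp5 and Gbp7, with 2 in each (8.3% of all windows hold one). An AP-1 match, TGAGTCA, was found in Gbp2 alone, from -102 to -96 (7.81% of all windows), and a kappaB match, GGAAATTCCC, in Gbp5 alone, from -77 to -68 (4.51%). GENCODE starts Gbp5, Gbp3 and Gbp2 upstream of RefSeq, so these distances hold for the RefSeq starts. A match is a description of the letters, not evidence that a factor binds.

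All values below are the log2 values that the authors deposited, and a difference of 1 is a doubling. They are normalized between libraries but not for gene length. Read totals of the single libraries were not used here, and errors reflect variation among libraries alone. Fos did not verify the labels: it was 12.41 to 12.72 at 0 h in the libraries labeled FosKO against 11.07 to 11.17 in LysM-Cre, and higher there at 1 and 2 h too (differences of 1.64 and 3.29) and lower at 0.5 h (-0.77). A single value for all exons of Fos cannot show the loss of a part of it, so the directions reported here depend on the labels as given. The rise of Fos with LPS did differ between the labels: from 0 to 0.5 h it was 2.41 in LysM-Cre (limma adjusted p 1.61e-14) and 0.15 in FosKO (adjusted p 0.396), with a difference between them of -2.26 (adjusted p 1.38e-09). Lyz2, the locus of Cre, was also higher in the libraries labeled FosKO, by 5.17, 4.89, 4.98 and 5.06 at 0, 0.5, 1 and 2 h. The Lyz2 difference thus went with the label at every time. Its part in the differences below cannot be told apart from that of Fos and was not tested. Rn18s-rs5, an 18S RNA gene, split the libraries into a low set of 5 (16.65 to 17.00) and a high set of 19 (18.57 to 19.39). At 0.5 h the low set held FosKO replicate 1 and replicate 3 of LysM-Cre. At 1 h it held FosKO replicate 1 with replicates 2 and 3 of LysM-Cre.

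The macrophage identity of the cells was examined with 8 markers, found in 9 rows, all of which passed the filter. Their summed linear level at 0 h was 163000 to 166000 in LysM-Cre and 159000 to 168000 in the libraries labeled FosKO. Of the 9 rows, 3 were called higher and 4 lower in FosKO at 0 h, with a median difference of 0.00 (19.5% of all genes were called higher and 15.9% lower). Of 8 T and NK cell markers only Cd4 passed the filter, with Cd3d, Cd3e, Cd3g, Cd8a, Trac, Ncr1 and Klrb1c below it. Cd4 was higher in the libraries labeled FosKO by 0.42 at 0 h (limma, called). Granulocyte markers were lower there, with 3 of the 6 in the table tested and all 3 called, beside the 15.9% of all genes called lower, and a median difference of -0.81. Their summed level was 70.5 to 90.0 in LysM-Cre and 46.4 to 54.8 in FosKO, with Ly6g, Elane and Camp below the filter. Of 4 B cell and 4 fibroblast markers, 1 and 2 were tested, and 0 were called at 0 h. After LPS the B cell marker was called lower in FosKO at 0.5, 1 and 2 h (-0.38, -0.29 and -0.26), and at 2 h 4 macrophage rows were called higher and 0 lower (24.4% of all genes were called higher and 20.3% lower). Cd4 was called higher in FosKO at 0.5, 1 and 2 h (0.44, 0.36 and 0.44). Of the 3 granulocyte markers tested, 2, 3 and 3 were called lower at these times and 0 higher. Their medians were -0.65, -1.02 and -1.04 (19.7%, 15.9% and 20.3% of all genes were called lower). Of 2 dendritic cell markers tested, 1 was called higher at 1 h and 1 lower at 2 h. The part of these cell types in the results below was not tested.

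The question of whether Gbp expression differed between the labels was addressed first in unstimulated cells. All 8 genes were higher in the libraries labeled FosKO at 0 h, by between 0.85 and 1.81 on the log2 scale (1.8-fold to 3.51-fold), with a median of 1.45 (limma adjusted p at most 0.000132). Among all genes tested, 19.5% were called higher at 0 h and the median difference was 0.00. For each of the 8, all 3 FosKO libraries stood above all 3 LysM-Cre libraries. The share of all genes separated in this way is not given here, so this count has no background beside it. In bulk RNA, more expressing cells and more RNA per cell cannot be told apart.

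Gbp2, which is recruited to pathogen vacuoles and to cytosolic bacteria, was 11.28, 11.04 and 11.01 in LysM-Cre and 12.13, 12.71 and 13.17 in the libraries labeled FosKO at 0 h. The lowest FosKO library stood above the highest LysM-Cre library, and the FosKO libraries were spread widely. The difference was 1.56 (SE 0.21, adjusted p 7.19e-06).
Gbp5, known for promoting inflammasome activation, was 9.64, 9.47 and 9.48 in LysM-Cre and 10.52, 11.12 and 11.63 in the libraries labeled FosKO. The order of the FosKO libraries was the same as for Gbp2. The difference was 1.56 (SE 0.22, adjusted p 1.33e-05).
Gbp6 had the largest difference, 1.81 (SE 0.25, adjusted p 1.11e-05), from 7.92, 7.85 and 7.99 in LysM-Cre to 9.20, 9.75 and 10.23, with the uncertainty on shared reads given above. Gbp4 had a mean of 5.97 (SD 0.24) against 7.49 (SD 0.49), a difference of 1.52 (SE 0.24). Gbp3 and Gbp7 differed by 1.38 (SE 0.19) and 1.2 (SE 0.17).

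The smallest differences were in Gbp9 and Gbp8, whose annotated spans overlap in the chromosome 5 cluster. Gbp9 was 9.96, 9.90 and 9.90 in LysM-Cre and 10.60, 10.75 and 10.95 in the libraries labeled FosKO, a difference of 0.85 (SE 0.11, adjusted p 2.65e-06). Gbp8 was 4.67, 4.82 and 4.91 against 5.28, 6.08 and 5.78, a difference of 0.91 (SE 0.16, adjusted p 0.000132). Both were less than doubled, and neither overlapped between labels.

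**Figure D1:**
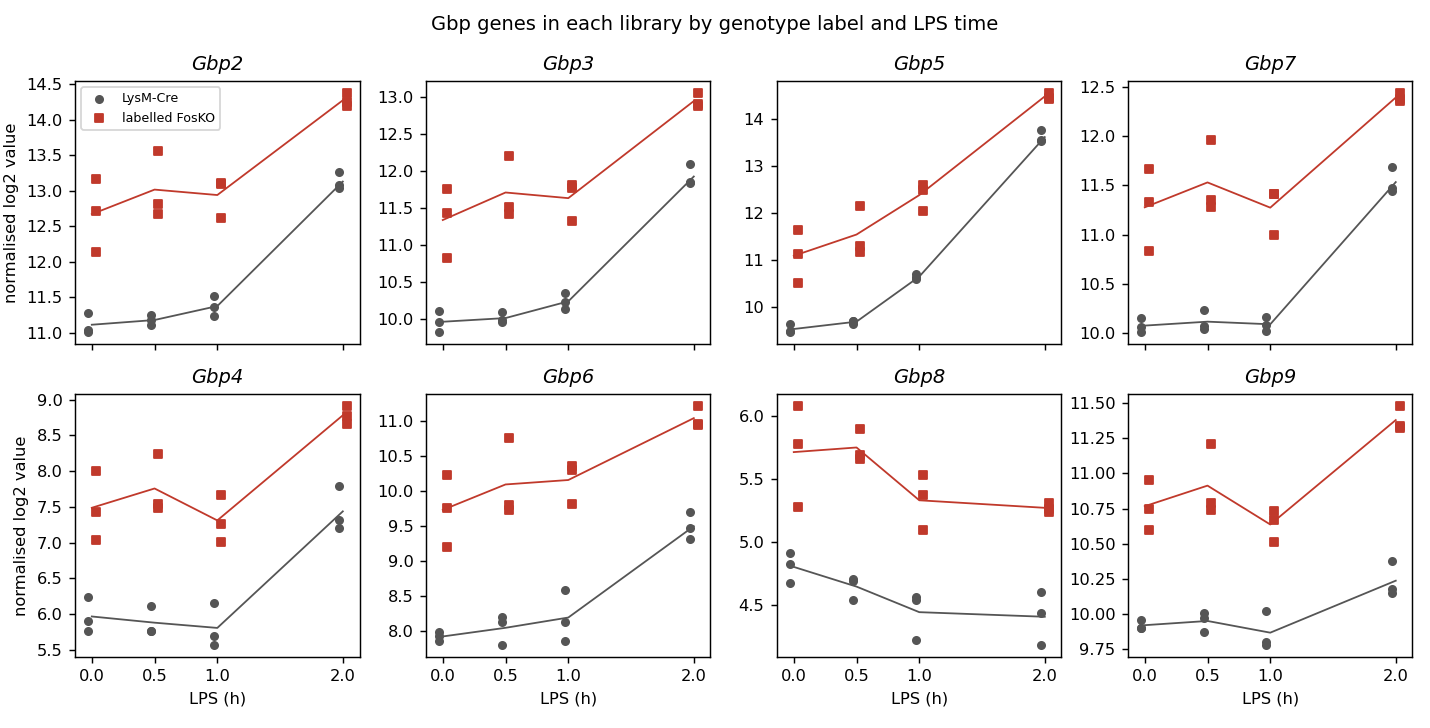
Normalized log2 values of the 8 Gbp genes (one panel each, with its own y axis) against hours of LPS. Points are single libraries, 3 per group, gray for LysM-Cre and red for libraries labeled FosKO, and lines join group means. Red points stand above gray points at every time, and 7 genes rise by 2 h while Gbp8 falls.

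After LPS the 8 genes remained higher in the libraries labeled FosKO at every time measured. At 0.5 h the differences ran from 0.97 to 2.05 with a median of 1.77 (adjusted p at most 1.12e-05, 21.2% of all genes called higher). At 1 h the range was 0.77 to 1.97 and the median 1.44 (adjusted p at most 0.000173, 18% of all genes). At 2 h the range was 0.86 to 1.54 and the median 1.08 (adjusted p at most 0.00312, 24.4% of all genes). The median difference of all genes was 0.00 at each of these times. Groups did not overlap for any of the 8 at any of the 3 times, and the share of all genes without overlap is not given here either. The 4 comparisons use separate libraries but share a single estimate of the spread. Same-numbered FosKO libraries at 0 and 0.5 h deviated together, so the comparisons are not shown to be independent repeats.

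At 2 h Gbp2 was 13.08, 13.04 and 13.27 in LysM-Cre and 14.20, 14.25 and 14.38 in the libraries labeled FosKO, a difference of 1.15 (SE 0.21, adjusted p 0.000144). The 3 libraries of each label lay close together. Gbp5 was 13.54, 13.55 and 13.77 against 14.44, 14.46 and 14.56, which gave 0.87 (SE 0.22, adjusted p 0.00312). Gbp6 kept the widest gap, 1.54 (SE 0.25, adjusted p 4.31e-05), from 9.31, 9.47 and 9.70 to 10.94, 10.96 and 11.21. Gbp9 differed more at 2 h, by 1.14 (SE 0.11, adjusted p 2.84e-08), than the 0.77 (SE 0.11) at 1 h, and it was the only one of the 8 whose difference at 2 h was above its 0 h value. Whether the difference changed with LPS is tested further on.

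Within the 18S sets every one of the 8 genes was higher in the libraries labeled FosKO. At 0.5 h the difference ran from 1.03 (Gbp9) to 2.31 (Gbp6) in the high set, with 2 libraries per label, and from 0.83 to 1.52 in the low set, with 1 per label. At 1 h it ran from 0.89 (Gbp8) to 2.47 (Gbp6) in the high set, with 1 LysM-Cre and 2 FosKO libraries, and from 0.61 (Gbp9) to 1.46 (Gbp6) in the low set, with 2 and 1. For Gbp2 the values were 2.05 and 1.41 at 0.5 h, then 1.86 and 1.17 at 1 h. For Gbp5 they were 2.05 and 1.45, then 1.91 and 1.40. The low set was not tested by itself. All libraries at 0 and 2 h were in the high set.

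**Figure D2:**
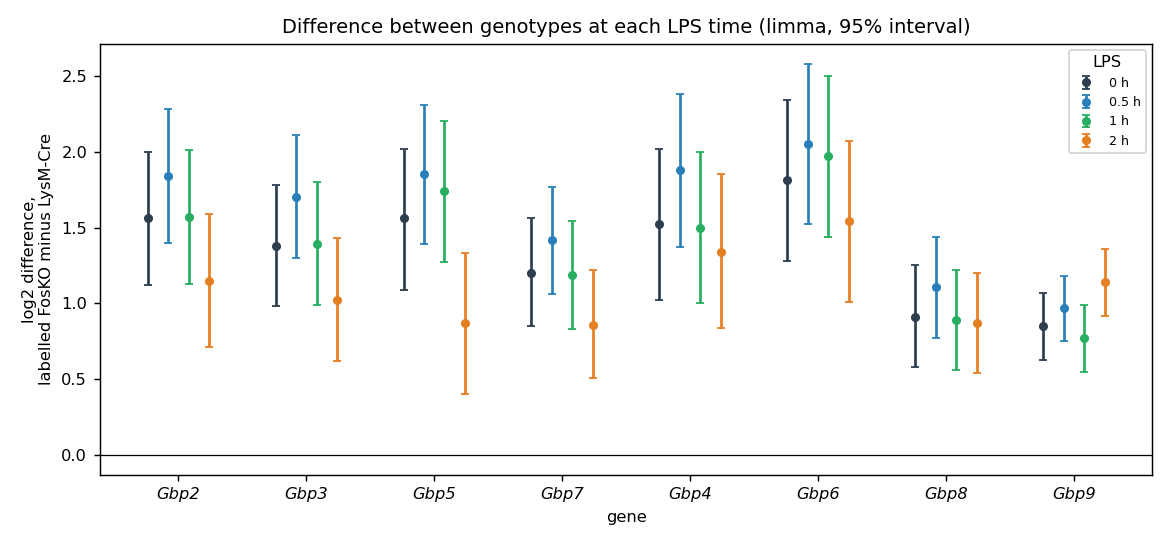
Log2 difference, libraries labeled FosKO minus LysM-Cre, for each Gbp gene (x axis) at 0, 0.5, 1 and 2 h of LPS (color). Points are limma estimates from 3 libraries against 3 and bars are 95% intervals. All 32 intervals lie above 0, from estimates of 0.77 to 2.05.

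The response to LPS was measured next within each label. In LysM-Cre cells at 0.5 h limma called 0 of the 8 genes, and 0 had an unadjusted p under 0.05 (7.24% of all genes were called). At 1 h 1 was called, Gbp5 (19.2% of all genes were called higher). By 2 h 7 genes had risen and 1, Gbp8, had fallen, with a median change of 1.52 (60.8% of all genes were called and 30.6% were called higher, with a median of -0.02). In the libraries labeled FosKO the counts were 0 at 0.5 h, with 0 unadjusted (5.92%), 1 at 1 h, again Gbp5 (17.6% called higher), and 7 higher and 1 lower at 2 h, with a median of 1.30 (62.1% called, 32.6% higher). From 0 to 0.5 h in FosKO, Gbp2, Gbp3, Gbp4, Gbp5, Gbp6 and Gbp7 were higher in each same-numbered library, whereas Gbp8 and Gbp9 were not. For Gbp5 10.52, 11.12 and 11.63 went to 11.17, 11.30 and 12.16. With the replicate number as a block within each genotype, none of the 8 was called there either.

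Gbp5 was the gene that rose earliest and most. In LysM-Cre it went from 9.64, 9.47 and 9.48 at 0 h to 10.64, 10.59 and 10.71 at 1 h, a rise of 1.12 (SE 0.22, adjusted p 0.000409). At 2 h it had risen by 4.09 (SE 0.22, adjusted p 1.29e-12), which is 17-fold. In the libraries labeled FosKO it rose by 1.29 at 1 h, to 12.05, 12.50 and 12.60 (adjusted p 9.32e-05), and by 3.40 at 2 h, or 10.5-fold (adjusted p 2.47e-11). At 0.5 h it had changed by 0.16 in LysM-Cre and 0.45 in FosKO, neither called.

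Gbp2 and Gbp3, which lie in the same cluster, rose by 2.02 (SE 0.21) and 1.97 (SE 0.19) at 2 h in LysM-Cre and by 1.60 and 1.61 in the libraries labeled FosKO (adjusted p at most 1.11e-06). In LysM-Cre, Gbp2 had been 11.24, 11.36 and 11.52 at 1 h, a change of 0.26 that was not called (adjusted p 0.366). Gbp7 rose by 1.46 and 1.12. On chromosome 5, Gbp6 rose by 1.57 and 1.31 and Gbp4 by 1.47 and 1.29, while Gbp9 rose by only 0.32 (SE 0.11, adjusted p 0.0134) and 0.61 (SE 0.11, adjusted p 3.52e-05). Without LysM-Cre replicate 3 at 2 h the rise of Gbp9 in LysM-Cre was 0.24 and was not called (adjusted p 0.0808), and it was 0.22 under quantile normalization (adjusted p 0.0571).

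Gbp8 moved the other way. In LysM-Cre it was 4.43, 4.18 and 4.60 at 2 h against 4.67, 4.82 and 4.91 at 0 h, a change of -0.40 (SE 0.16, adjusted p 0.0369). In the libraries labeled FosKO it was 5.26, 5.31 and 5.24 against 5.28, 6.08 and 5.78, a change of -0.44 (SE 0.16, adjusted p 0.0212), with overlap between the times. Both calls were borderline: leaving out single libraries moved the change to between -0.41 and -0.29 in LysM-Cre and to between -0.43 and -0.26 in FosKO where the call was lost. In LysM-Cre it was lost without replicate 2 (-0.39) or 3 (-0.35) at 0 h or replicate 1 (-0.41) or 2 (-0.29) at 2 h. In FosKO it was lost without replicate 2 (-0.26) or 3 (-0.41) at 0 h or replicate 3 (-0.43) at 2 h.

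Of 5 dendritic cell markers, 2 were tested and both rose by 2 h of LPS, with a median change of 2.05 in LysM-Cre and 1.48 in FosKO (30.6% and 32.6% of all genes were called higher). Their summed level at 2 h was 111 to 123 and 85.3 to 88.0. Flt3, Cd209a and Siglech were below the filter. The 3 granulocyte markers tested were also all called higher by 2 h, with median changes of 0.63 in LysM-Cre and 0.55 in FosKO. The part of dendritic cells or granulocytes in the Gbp changes was not tested.

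**Figure D3:**
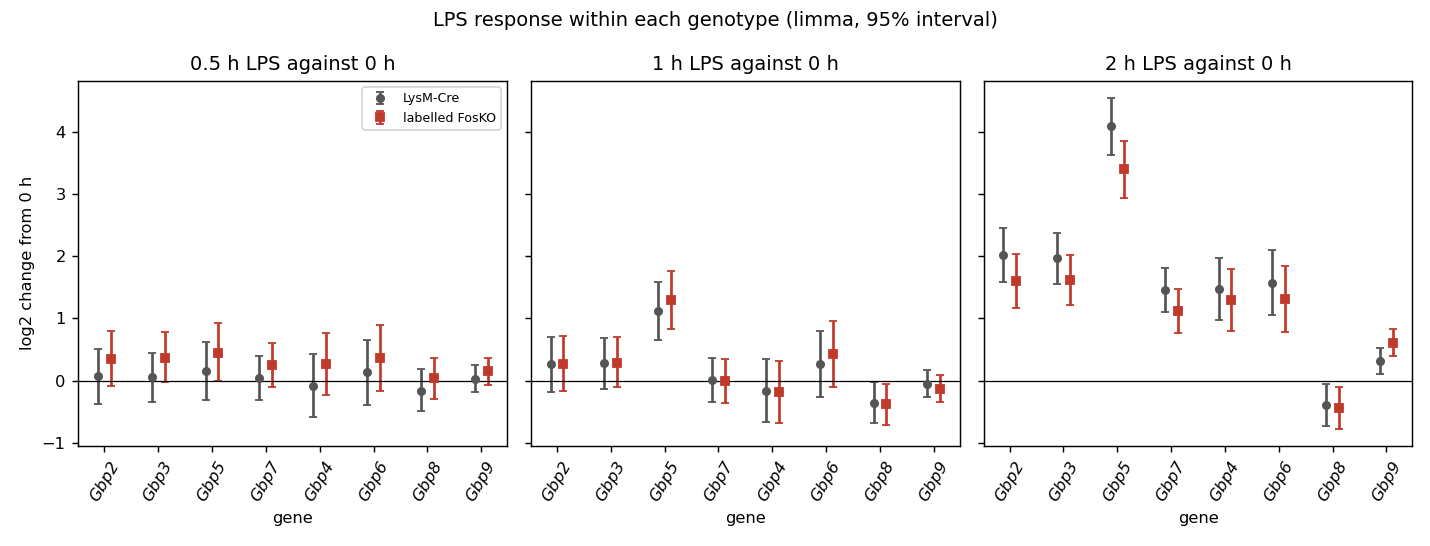
Log2 change of each Gbp gene from 0 h to 0.5, 1 and 2 h of LPS (panels), in LysM-Cre (gray) and in libraries labeled FosKO (red). Points are limma estimates and bars 95% intervals. At 1 h only Gbp5 is called, at 1.12 and 1.29, and at 2 h changes run from -0.44 for Gbp8 to 4.09 for Gbp5.

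Whether the LPS response itself differed between the labels was tested as a difference of differences, in which a positive value is a larger rise in FosKO. Limma called 0 of the 8 genes at 0.5 h (0.115% of all genes called), 0 at 1 h (1.22%) and 0 at 2 h (15%). At an unadjusted p under 0.05 there were 0, 0 and 1. The estimates lay between 0.12 and 0.36 at 0.5 h. They lay between -0.08 and 0.18 at 1 h, and between -0.69 and 0.30 at 2 h. The intervals are wide, so these values do not show that the responses were alike. At 2 h the 95% interval was -1.04 to 0.21 for Gbp2, -0.93 to 0.21 for Gbp3 and -0.84 to 0.16 for Gbp7.

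Gbp5 had the lowest estimate at 2 h, -0.69 (95% interval -1.35 to -0.04, unadjusted p 0.0397, adjusted p 0.159). The result depended on the processing. It was called without FosKO replicate 1 at 0 h (-0.98, adjusted p 0.0221), under quantile normalization (-0.96, adjusted p 0.0372) and with the replicate number as a block within each genotype (-0.69, adjusted p 0.0198). Gbp9 had the highest estimate, 0.30 (95% interval -0.01 to 0.61, adjusted p 0.21), and was called with that same block (adjusted p 0.0402).

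The values of unstimulated cells labeled FosKO were set beside those of LysM-Cre cells after 2 h of LPS, and overlapped for Gbp2, Gbp4, Gbp6 and Gbp7. Gbp6 was 9.20 to 10.23 in the former and 9.31 to 9.70 in the latter, and Gbp4 had means of 7.49 (SD 0.49) and 7.43 (SD 0.31). Gbp2 was 12.13 to 13.17 against 13.04 to 13.27, and Gbp7 10.83 to 11.67 against 11.44 to 11.69. Gbp5 and Gbp3 were lower in unstimulated FosKO cells, at 10.52 to 11.63 against 13.54 to 13.77 and at 10.82 to 11.76 against 11.84 to 12.09. Gbp9 and Gbp8 were higher in unstimulated FosKO cells, at 10.60 to 10.95 against 10.15 to 10.38 and at 5.28 to 6.08 against 4.18 to 4.60. These are values set side by side, with no test.

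Levels were compared between genes only after 2 raised to the power of each value had been divided by the length of the exons in kilobases. On this linear scale per kilobase Gbp2 was first in every group shown here, at 881 ± 93.1 (SD, n = 3) in LysM-Cre and 2700 ± 941 in FosKO at 0 h, and 3560 ± 308 and 7890 ± 531 at 2 h. In LysM-Cre at 0 h it was followed by Gbp3 (305 ± 29.6), Gbp7 (192 ± 9.13), Gbp9 (187 ± 4.11), Gbp5 (112 ± 7.68), Gbp6 (40.7 ± 2.1), Gbp4 (8.43 ± 1.47) and Gbp8 (8.11 ± 0.665). Gbp7 and Gbp9 did not differ beyond their spread, nor did Gbp4 and Gbp8. At 2 h in LysM-Cre Gbp5 stood in the second place with 1900 ± 177, ahead of Gbp3 with 1200 ± 121, and the rest kept their order, with Gbp7 at 529 ± 50.6, Gbp9 at 234 ± 21.3, Gbp6 at 122 ± 16.7, Gbp4 at 23.5 ± 5.3 and Gbp8 at 6.18 ± 0.886. In FosKO at 0 h, Gbp5 (344 ± 128) and Gbp9 (338 ± 42.2) did not differ beyond their spread.

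**Figure D4:**
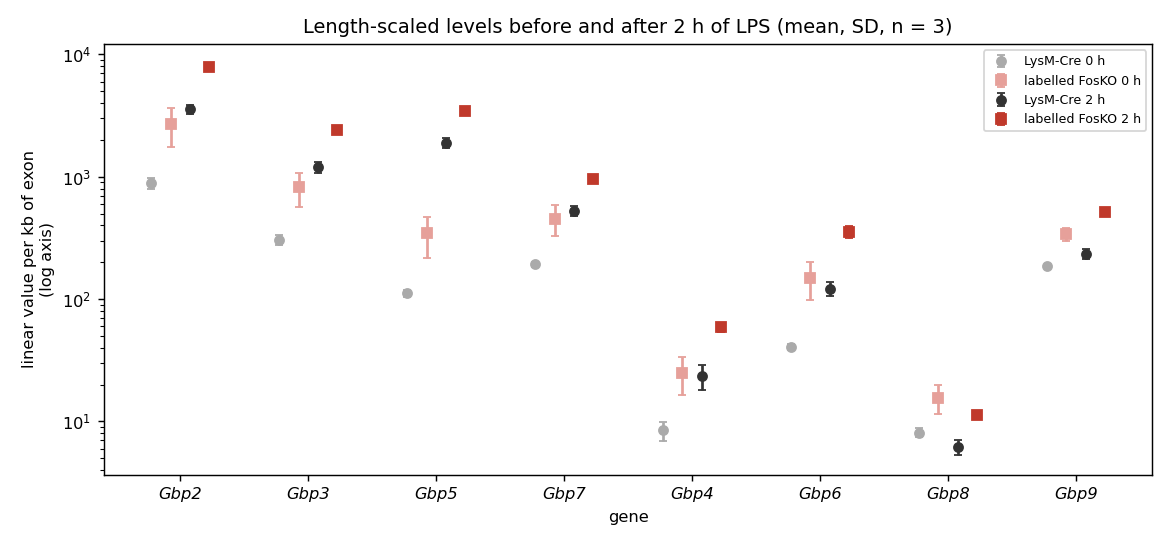
Linear value per kilobase of exon (log axis) for each Gbp gene in LysM-Cre (circles) and libraries labeled FosKO (squares), at 0 h (pale) and 2 h (dark). Points are means and bars SD over 3 libraries. Gbp2 is first in all 4 groups and Gbp5 goes from the fifth place (112) to the second (1900) in LysM-Cre.

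The libraries labeled FosKO differed among themselves more than the controls until 2 h. In FosKO the median SD of the 8 genes went from 0.48 at 0 h through 0.42 and 0.28 to 0.09 at 2 h. In LysM-Cre it was 0.11, 0.08, 0.14 and 0.14. The median SD of all tested genes lay between 0.06 and 0.08 in the 8 groups. At 0 h, 98.4% of all tested genes had an SD in FosKO below that median of 0.48. The 8 genes moved as a block: at 0 h FosKO replicate 1 was the lowest library for 8 of 8, and replicate 3 the highest for 7, with Gbp8 as the exception. Controls did so too, with LysM-Cre replicate 2 the lowest for 8 of 8 at 0.5 h and replicate 3 the highest for 8 of 8 at 2 h. At 0.5 h FosKO replicate 3 was the highest for 8 of 8, and at 1 h FosKO replicate 1 was the lowest for 8 of 8. This last library also belongs to the low 18S set, as does FosKO replicate 1 at 0.5 h, and the part of that split was not tested. The single fit assumes one spread for all groups. In the fit of only the groups compared all 8 genes were still called at each of the 4 times.

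Deviations from the group mean correlated between pairs of Gbp genes at r between 0.84 and 0.99 over the 24 libraries, when the 6 genes other than Gbp8 and Gbp9 were paired (15 pairs). Pairs with Gbp8 lay between 0.49 and 0.64, and the 6 pairs of Gbp9 with the others between 0.89 and 0.95. These points share libraries and normalization and are given as a description.

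**Figure D5:**
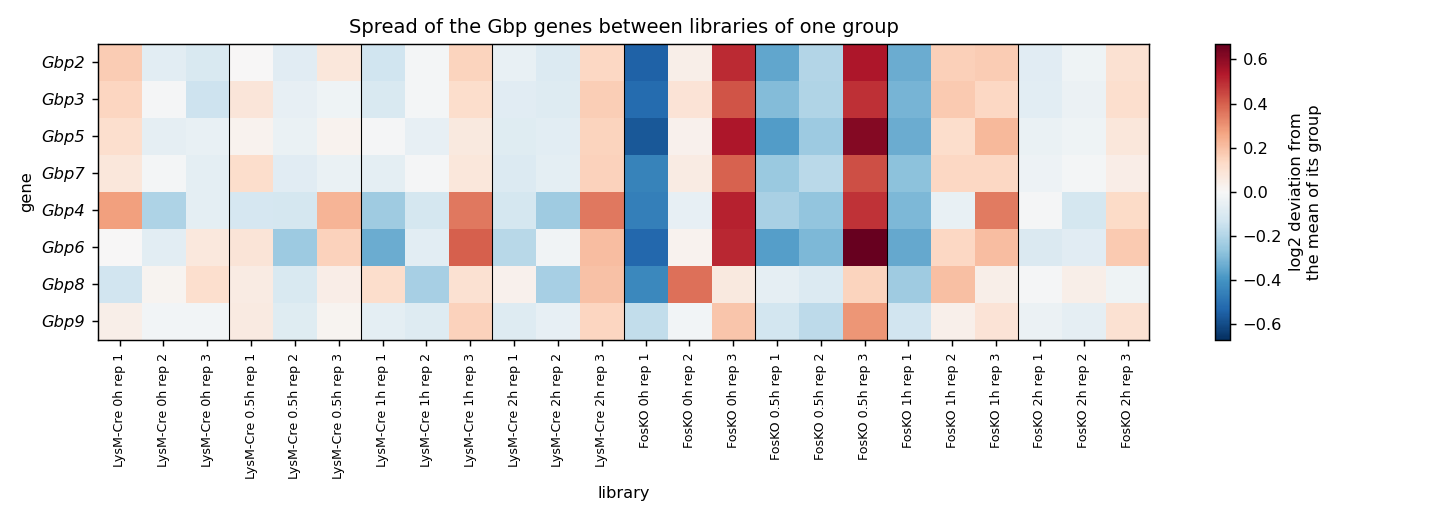
Deviation of each library from the mean of its group, on the log2 scale (color), for the 8 Gbp genes (rows) in the 24 libraries (columns, 3 per group between the vertical lines). FosKO replicate 1 at 0 h (lowest for 8 of 8 genes) and replicate 3 at 0.5 h (highest for 8 of 8) deviate in one direction from top to bottom. So do LysM-Cre replicate 2 at 0.5 h (lowest for 8 of 8) and replicate 3 at 2 h (highest for 8 of 8).

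Among interferons, Ifng, the gene of interferon-γ, stayed between -1.52 and -1.33 in every library and did not pass the filter. Ifnb1 was 6.05, 6.04 and 6.14 in LysM-Cre at 0 h and 6.10, 6.15 and 6.26 in the libraries labeled FosKO. This difference of 0.10 was not called by limma (adjusted p 0.609). Ifnb1 was at its lowest at 0 h, and where values come from a regularized scale, a difference there can be understated. All 8 Gbp genes were called higher at that time, and the part of interferon in this was not tested. None of the 4 type I interferon genes tested (Ifnb1, Ifna2, Ifna4 and Ifna5) was called at 0 h. At that time 19.5% of all genes were called higher and 15.9% lower. All 4 were called higher at 1 and 2 h, with medians of 3.14 and 3.76, and 1, Ifnb1, at 0.5 h (21.2%, 18% and 24.4% of all genes were called higher at 0.5, 1 and 2 h). The near-identical Ifna genes can share reads.

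Of 17 genes that carry or restrain interferon signals upstream of the Gbp genes, such as receptors, kinases and transcription factors, all were tested. At 0 h 13 were higher in the libraries labeled FosKO and 1 was lower, with a median difference of 0.24 (19.5% of all genes were called higher and 15.9% lower). At 0.5 h these counts were 13 and 1 (21.2% and 19.7% of all genes). They became 9 and 3 by 1 h (18% and 15.9%), then 11 and 3 by 2 h (24.4% and 20.3%). The largest differences at 0 h were in Irf7, a transcription factor for type I interferon genes (1.2, SE 0.13), Usp18, a brake on the type I receptor (1.09, SE 0.14), and Stat2 (0.93, SE 0.10), all called (limma adjusted p at most 2.93e-06). The lowest signed differences were in Ifnar2, a chain of the type I receptor (-0.04, adjusted p 0.328), Irf3 (-0.06, adjusted p 0.378) and Ifngr1, a chain of the interferon-γ receptor (-0.18, SE 0.03, adjusted p 0.000333), of which only Ifngr1 was called.

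Of 10 genes that act with guanylate-binding proteins in cytosolic LPS sensing and inflammasomes, 6 were higher in the libraries labeled FosKO at 0 h and 0 lower, with a median of 0.30, where 19.5% of all genes were called higher. At 0.5 h 6 were higher and 1, Il1b, was lower (-0.28, adjusted p 0.00866), where 21.2% of all genes were called higher and 19.7% lower. At 1 h the counts were 6 and 0 (18% called higher). At 2 h the counts were 8 and 0, where that share was 24.4%. Casp4, which encodes caspase-11, the cytosolic LPS receptor, differed most of the 10 at 0 h, by 0.94 (SE 0.10, adjusted p 2.78e-07). Il18 and Aim2, a cytosolic DNA sensor, followed with 0.62 and 0.49. At 2 h Casp4 differed by 0.49, less than Aim2 (0.67) and Il18 (0.60). The lowest signed differences were in Nlrp3 (0.10, adjusted p 0.227), Nek7 (-0.01, adjusted p 0.911) and Pycard, the inflammasome adaptor ASC (-0.11, adjusted p 0.16), none of which was called at 0 h.

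The genes whose values tracked each member most closely were searched among 10027 protein-coding genes outside the family. Over the 24 libraries Pearson's r was highest with Parp9 for Gbp2 (0.997) and for Gbp3 (0.996), with Car13 for Gbp5 (0.994), Usp18 for Gbp7 (0.995), Tgtp2 for Gbp4 (0.993), Ifi204 for Gbp6 (0.989), Samhd1 for Gbp9 (0.991) and Parp11 for Gbp8 (0.965). Next came Ogfr and Cmpk2 for Gbp2, Rsad2 and Cmpk2 for Gbp3, Oasl1 and Cxcl10 for Gbp5, Ifi47 and Tap2 for Gbp7, Fgl2 and Iigp1 for Gbp4, Tapbp and Sp110 for Gbp6, Trim30a and Cd86 for Gbp9, and Kdr and Treml2 for Gbp8. Pairs of the 6 genes other than Gbp8 and Gbp9 correlated at 0.84 to 1.00 with each other, and pairs with Gbp8 at 0.17 to 0.75. The libraries share 8 groups, so r mostly follows the group means and carries no p.

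The table also held Gbp2b, Gbp10 and Gbp11, which lie in the same clusters and were not among the 8 symbols. All were low, with highest values of 3.37, 3.87 and 3.53. Gbp11, annotated as a polymorphic pseudogene, was 1.70, 1.81 and 1.90 in LysM-Cre at 2 h and 3.46, 3.53 and 3.30 in the libraries labeled FosKO. It passed the filter only through libraries labeled FosKO, so its difference is given as values with no test. Gbp2b differed by 0.60 at 2 h (SE 0.16, adjusted p 0.00554) and was not called at 0, 0.5 or 1 h (0.09, 0.40 and 0.17, adjusted p 0.709, 0.0569 and 0.472). Gbp10, which shares 84.1% of its windows with other genes, was not called at any of the 4 times, with differences of 0.13 to 0.35. Where values this low come from a regularized scale, differences are understated.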

How the data were processed

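RNA of 24 BMDM libraries was measured by single-end, strand-specific sequencing of TruSeq libraries on an Illumina platform. Per the labels, the authors mapped and counted reads with STAR 2.5.2a and RSEM 1.2.31 on GRCm38 and normalized with DESeq2, for which the labels give version 1.16.1. The authors deposited log2 values, one per gene and library, that resemble a regularized log, which shrinks low genes toward their own mean. The methods name RefSeq genes, but the table carries Ensembl identifiers, so the annotation behind it is uncertain; 99.6% of the identifiers were found in GENCODE M21.

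The rows tested had 2 raised to the value of at least 5 in at least 3 libraries. limma 3.58.1 (R 4.3.3) was fitted to the log2 values as deposited, with 8 group means, 16 residual degrees of freedom and a variance trend. P-values (two-sided) were adjusted over 13901 genes by Benjamini-Hochberg, with a threshold of 0.05 for a call, in 13 comparisons. An exact permutation test of 3 libraries against 3 could not reach that threshold and was not used. The fit was tested on simulated data, but no result of that test is given or relied on here.

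The members and lists were chosen with earlier results of these data known. Genes were named by fixed rules: the 8 members, other Gbp rows, the genes with the 3 highest and the 3 lowest signed differences at 0 h in 2 lists, and for each member the 3 genes with the highest correlation and a mean linear value of at least 50. Alternatives were a pseudocount of 1, no filter, quantile normalization, equal library medians, no variance trend, only the groups compared, replicate blocks, an 18S term, only high 18S libraries, and leaving out each library.

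Same-numbered libraries were taken to deviate together where each of the 3 correlations was over 0.1. This held for FosKO at 0 and 0.5 h (0.191, 0.134 and 0.269) and in no other comparison. For FosKO at 0 and 1 h the correlations were also positive (0.238, 0.077 and 0.147). The labels give no source for such a pairing. For FosKO at 0 and 0.5 h the block within genotype changed no call among the 8 genes. For FosKO at 0 and 1 h it added calls of Gbp6 and Gbp8 (limma adjusted p 0.0386 and 0.0334). Protein sequences were not used here.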

Additional observations from a re-analysis of the deposited data

How the results depend on the processing

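All 32 differences between the genotypes (8 genes, 4 times) kept their direction and their call under every alternative run, including each library left out, which kept the count at 8 of 8 at each time. No called value changed sign in any comparison. The count of genes called at 1 h of LPS in LysM-Cre went from 1 to 3 with only the groups compared and to 2 with the replicate block within genotype. It stayed at 1 with the low 18S term, where only the near-floor row ENSMUSG00000079362, outside the counts, gained a call. The high 18S libraries held 1 LysM-Cre library at 1 h, so no count is given for them. In FosKO at 1 h the count went from 1 to 3 with the replicate block within genotype, and to between 1 and 2 with a library left out (2 without FosKO replicate 1 at 0 h or replicate 2 at 1 h). In FosKO at 0.5 h it went from 0 to between 0 and 1 with a library left out, as Gbp5 was called without FosKO replicate 3 at 0 h (0.72). The difference in response at 2 h went from 0 to 1 under quantile normalization, to 2 with the replicate block within genotype, and to between 0 and 1 with a library left out. The replicate number as a block shared by all groups changed no call. Outside FosKO at 0 and 0.5 h, at least 1 correlation of same-numbered libraries was 0.1 or less, though all were positive within each genotype, so whether the numbers pair libraries there is not settled. At 2 h of LPS in LysM-Cre the call of Gbp8 was also lost with no filter (adjusted p 0.0605), under quantile normalization (0.0514) and with equal library medians (0.0551), and in FosKO with only the groups compared (0.0711). The cause was not tested. The methods give a typical yield of reads and not that of each library, so no limit from depth could be computed.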

Other observations

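The p47 GTPases are a further family of interferon-induced GTPases. Of 11 listed, all were tested, and 10 were higher in the libraries labeled FosKO at 0 h and 11 at 0.5 h, 10 at 1 h and 11 at 2 h, with 0 lower at each time. Their median differences were 0.92, 1.1, 0.95 and 0.84, beside 0.00 for all genes, of which 19.5%, 21.2%, 18% and 24.4% were called higher. At 2 h 7 were higher and 1 lower in LysM-Cre (median 1.32), and 7 and 0 in FosKO (median 1.15), where 60.8% and 62.1% of all genes were called and 30.6% and 32.6% were called higher.

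The genes of the ATG8 conjugation system, which guides guanylate-binding proteins to pathogen vacuoles, had small median differences between the labels. Of 10, 6 were called higher and 1 lower in the libraries labeled FosKO at 0 h, with a median difference of 0.10 (19.5% and 15.9% of all genes). At 0.5 h the counts were 6 and 1, with a median of 0.14 (21.2% and 19.7%). They were 5 and 1 at 1 h, with a median of 0.07 (18% and 15.9%), and 6 and 2 at 2 h, with a median of 0.12 (24.4% and 20.3%). At 2 h of LPS 3 were higher and 3 lower in LysM-Cre (median 0.06), where 60.8% of all genes were called and 30.6% were called higher. In FosKO 4 were higher and 3 lower (median 0.08), where 62.1% were called and 32.6% were called higher.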
